A study of Mus musculus with 4 samples.

Results

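The 8 genes described here (Lhx6, Lhx8, Nkx2-1, Maf, Htr3a, Erbb4, Prox1 and Nxph1) are a named group of factors linked to the migration and fate of cortical interneurons. They were taken by symbol from a single-cell RNA-seq table of 16600 genes, and all 8 were present. The table held 6562 cells in 4 libraries, made from E18.5 mouse cortex after dissociation and sorting for the neuronal surface marker CD24 and against the haematopoietic marker CD45. Libraries WT3 (1453 cells) and WT6 (1954 cells) were wild type (Setd5+/+), and Het5 (1710 cells) and Het9 (1445 cells) were heterozygous for Setd5 (Setd5+/-), a gene for a chromatin regulator. All were of strain C57BL/6J and none was treated. The heterozygous animals came from a Setd5-GFP transgenic line that serves as a germline knockout of 1 allele, so the sampled cells of all types carried the genotype. The study's methods give 2 fetuses for each genotype, the same number as the libraries. Between genotypes, p-values rest on the spread between libraries of a genotype. Between cell classes, they rest on how the class difference varied from library to library. Fits by limma drew each gene's spread towards that of all genes tested, so a p-value does not rest on the gene's own spread alone. The labels give about 2500 cells per library.

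Cortical interneurons are not born in the cortex. They arise in the ganglionic eminences of the subpallium under Dlx transcription factors and migrate tangentially into the cortical plate. In the medial eminence the homeodomain factor Nkx2-1 switches on the LIM-homeodomain genes Lhx6 and Lhx8, Lhx6 persists in somatostatin and parvalbumin interneurons that enter the cortex, and Lhx8 is best known in cholinergic and other neurons that remain in the basal forebrain. Interneurons of the caudal eminence are known for the serotonin receptor gene Htr3a, the homeodomain gene Prox1 and the nuclear receptors Nr2f1 and Nr2f2. Maf encodes a leucine zipper factor of migrating medial eminence interneurons, Erbb4 the neuregulin receptor that guides migrating interneurons, and Nxph1 a secreted ligand of alpha-neurexins.

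The genes lie on 7 chromosomes. In GENCODE M21 (GRCm38), Lhx6 spans chr2:36081953-36105408, Lhx8 chr3:154306294-154330659, Nkx2-1 chr12:56531958-56536908, Maf chr8:115682942-115707794, Htr3a chr9:48899213-48911099, Erbb4 chr1:68032186-69108059 and Prox1 chr1:190118035-190170714, all on the minus strand, while Nxph1 spans chr6:8948431-9249032 on the plus strand. Prox1 was the only one of them overlapped by other genes of the table, Prox1os and Gm28172, both antisense to it. Whether reads were counted by strand is not given in the sources used here, so the reads of Prox1 and these antisense genes may not be fully separated. Promoters of the first 3 genes below are shown because their transcripts were found in the same cells, and that of Prox1 because it was highest in other cells, those gated on Nr2f2 or Htr3a. The sequences are from RefSeq (GRCm38.p6), the 250 bases before the first listed start of each gene, read 5′ to 3′ on the gene's strand, with any TAATTA or CAAGTG (searched on both strands) in capitals. RefSeq start sites were matched for 6 of the 8 genes.
Lhx6 (chr2:36105409-36105658, minus strand): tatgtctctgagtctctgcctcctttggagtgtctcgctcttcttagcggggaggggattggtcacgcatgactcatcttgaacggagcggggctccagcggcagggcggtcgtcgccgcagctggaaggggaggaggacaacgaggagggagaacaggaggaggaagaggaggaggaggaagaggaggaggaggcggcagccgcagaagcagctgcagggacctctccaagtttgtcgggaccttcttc
Lhx8 (chr3:154330561-154330810, minus strand): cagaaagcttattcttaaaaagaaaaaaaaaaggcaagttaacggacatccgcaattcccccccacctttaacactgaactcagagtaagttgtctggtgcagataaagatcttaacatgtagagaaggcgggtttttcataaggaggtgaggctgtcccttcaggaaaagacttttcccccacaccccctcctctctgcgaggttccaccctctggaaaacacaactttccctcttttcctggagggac
Nkx2-1 (chr12:56536909-56537158, minus strand): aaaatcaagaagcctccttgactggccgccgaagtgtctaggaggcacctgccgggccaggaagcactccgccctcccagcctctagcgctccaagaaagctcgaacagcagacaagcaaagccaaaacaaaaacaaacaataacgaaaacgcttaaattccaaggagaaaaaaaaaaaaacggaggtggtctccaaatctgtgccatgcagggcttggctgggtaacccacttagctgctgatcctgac
Prox1 (chr1:190170828-190171077, minus strand): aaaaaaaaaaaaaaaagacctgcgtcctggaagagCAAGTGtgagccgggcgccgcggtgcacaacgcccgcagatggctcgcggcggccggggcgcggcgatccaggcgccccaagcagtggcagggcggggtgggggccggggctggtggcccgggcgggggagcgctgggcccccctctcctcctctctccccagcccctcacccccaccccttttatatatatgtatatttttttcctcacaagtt
TAATTA, the core letters read by many homeodomain proteins, was in none of these 4 windows and in 4.84% of all 32851 windows of 250 bases. CAAGTG, the core letters read by Nkx2-type homeodomains, was in the Prox1 window and in 11.6% of all windows. A match of letters is not evidence that a site is bound.

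Depth was similar between libraries. They held 8205330 to 11742956 UMIs (unique molecular identifiers, each standing for 1 captured transcript), with medians of 5398 to 5997 UMIs per cell. The level of a gene is its UMIs per 10000 UMIs of a cell, averaged over the cells of a library. Setd5 stood at 1.18 and 1.07 in the wild type and 0.540 and 0.586 in the heterozygous libraries. Xist stood at 20.6 and 21.5 in WT3 and WT6 and at 0.152 and 0.310 in Het5 and Het9, and Ddx3y was at 0.465 or more only in the heterozygous libraries, so genotype and fetal sex cannot be told apart. In each library 56 cells, 224 in all, had barcodes found in all 4 libraries, none of them Dlx-positive, and 12 Dlx-positive cells had a barcode found in 2.

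Cells were called Dlx-positive where they held at least 2 UMIs summed over Dlx1, Dlx2, Dlx5, Dlx6 and Dlx6os1, which mark the subpallial lineage. There were 2060 such cells (489 from WT3, 709 from WT6, 483 from Het5 and 379 from Het9), against 4502 Dlx-negative cells. Gad1, Gad2 and Slc32a1, genes of GABA synthesis and vesicular loading, were all higher in the Dlx-positive cells, Gad2 by 3.20 ± 0.08 on the log2 scale (SE, adjusted p by limma 4.49e-12). The 7 pallial markers together stood at 1.54 to 2.11 in Dlx-positive and 21.2 to 24.8 in Dlx-negative cells. No doublet caller was run, and 163 Dlx-positive cells (7.91%) also held at least 2 UMIs of the excitatory markers Neurod2, Neurod6 and Tbr1.

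All 8 genes were higher in Dlx-positive than in Dlx-negative cells, where 48.8% of the 8073 genes tested were called in either direction and 20.3% were called higher (limma with library as a block, adjusted p under 0.05). Genes were tested where their mean level over both classes was at least 0.1. Of the 8 genes, 7 (all but Prox1) had a mean under 0.1 in the Dlx-negative cells and passed this filter only through the Dlx-positive cells. The count of members and the p-values of these 7 are therefore descriptions, and the count is not read against the share over all genes. On the log2(level + 0.1) scale, Nkx2-1 differed most (log2 fold change 3.35 ± 0.13, adjusted p = 2.17e-10). It stood at 1.64, 1.59, 1.39 and 0.790 in the Dlx-positive cells of WT3, WT6, Het5 and Het9 against 0.026, 0.132, 0.021 and 0.0024 in the Dlx-negative cells. For each of the 8 genes the lowest Dlx-positive library stood above the highest Dlx-negative library. The libraries of the 2 classes did not overlap, in either direction, for 43.9% of the genes tested. Because of the filter, the members are not read against this share either. Lhx8 was at 0.518, 0.874, 0.824 and 0.0725 in Dlx-positive cells and at 0.0116 or less in Dlx-negative cells (2.41 ± 0.29, adjusted p = 1.21e-05), so that Het9 stood well below the other 3 libraries. The log2 fold changes of the others were 2.90 for Lhx6, 2.21 for Htr3a, 1.89 for Erbb4, 1.59 for Nxph1, 1.53 for Maf and 1.36 for Prox1. All fold changes here are on the log2(level + 0.1) scale, which understates the change of genes at low level.

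The group split by how closely it kept to the Dlx-positive cells. Of the cells with a UMI, 93.6% were Dlx-positive for Lhx8 (176 of 188), 91.4% for Lhx6 (352 of 385), 88.0% for Erbb4 (191 of 217), 86.5% for Nkx2-1 (424 of 490), 81.9% for Htr3a (158 of 193) and 74.7% for Nxph1 (109 of 146). Prox1 and Maf were spread more widely, with 54.4% (370 of 680) and 58.5% (151 of 258) of their cells Dlx-positive. Of the 310 Dlx-negative cells with Prox1, 224 were gated on Eomes or Neurog2, which mark intermediate progenitors. They were 224 of 1705 such cells (13.1%, or 7.74% after each cell was thinned to 3000 UMIs), against 34 of the 1932 cells gated on Neurod2, Neurod6 or Tbr1 (1.76%, thinned 1.32%), with median depths of 6278 and 5458.5 UMIs. Of the 107 Dlx-negative cells with Maf, 47 passed none of the neural gates (11.1% of 424 such cells, median 3574.5 UMIs), and 32 had barcodes found in all 4 libraries.

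In 12 populations gated in a fixed order on marker UMIs, the 8 genes followed 3 patterns (heat map of cells with a UMI by population). Because Lhx6 and Htr3a were used as gates, their own levels there are descriptions of the gate. Nkx2-1 was highest in Lhx6-positive cells without Htr3a (4.86 ± 0.42, SD, n = 4 libraries) and with Htr3a (4.31 ± 1.26), which overlapped, and the next population, Htr3a without Lhx6, was lower in 4 of 4 libraries (0.917 ± 0.738). The populations next in the order, gated on Zic1 or Zic4 (0.704 ± 0.866), cycling (0.680 ± 0.312) and remaining Dlx-positive cells (0.650 ± 0.313), each overlapped their neighbours. Lhx8 was highest in Lhx6-positive cells without Htr3a (2.65 ± 1.65), where Het9 at 0.387 overlapped the next populations, and it gave no UMI in 104 Htr3a-positive cells without Lhx6 (a count of 0 allows a share of up to 2.88%) or in 70 Nr2f2-gated cells (up to 4.29%). Maf was at 1.25 ± 0.18 and 1.2 ± 0.48 in Lhx6-positive cells without and with Htr3a, which overlapped, and at 0.429 ± 0.149 in the next population, the remaining Dlx-positive cells, with no overlap.

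**Figure D1:**
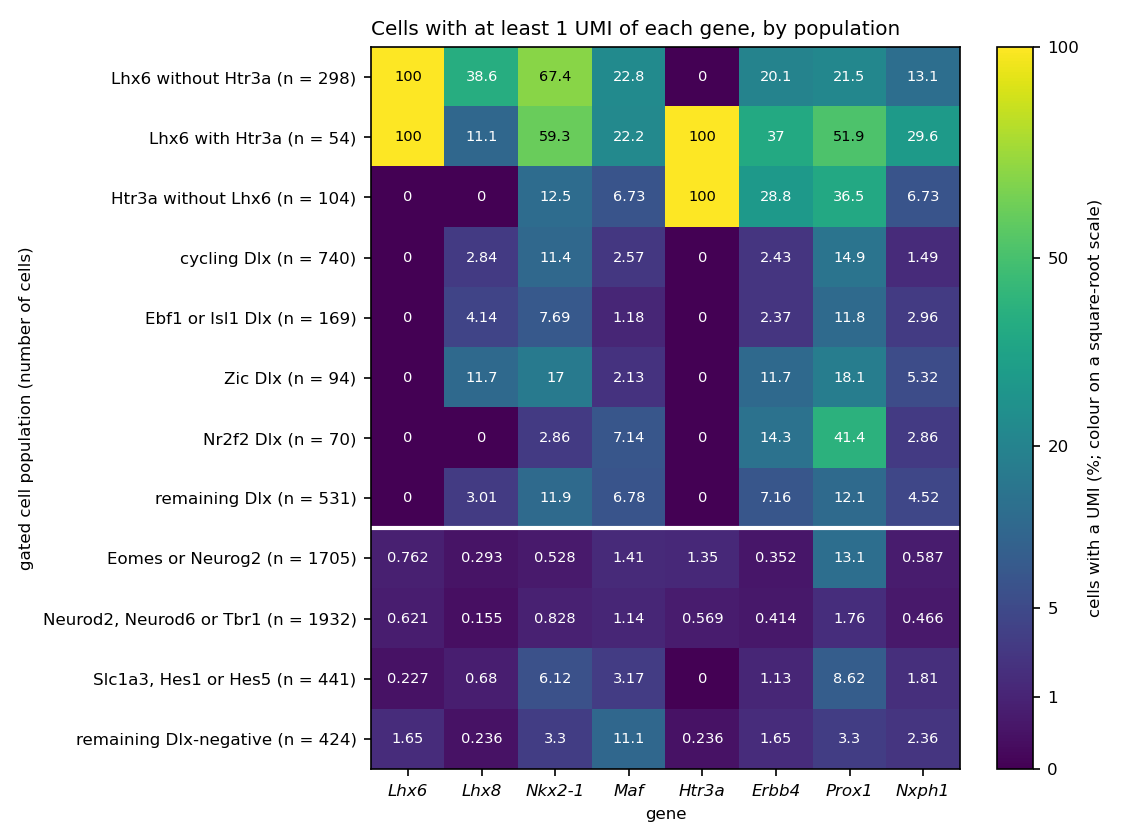
Share of cells with at least 1 UMI (%, printed in each square and coloured on a square-root scale) for the 8 genes (columns) in 12 gated populations (rows, with the number of cells); the white line divides Dlx-positive populations above from Dlx-negative populations below. Nkx2-1 was found in 67.4% of Lhx6-positive cells without Htr3a and in 2.86% of Nr2f2-gated cells, where Prox1 was found in 41.4%.

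Prox1 had another order. It stood at 1.62 ± 0.52 in Nr2f2-gated cells, 1.55 ± 0.27 in cells with both Lhx6 and Htr3a and 1.54 ± 0.27 in Htr3a-positive cells without Lhx6, which overlapped each other, and then at 0.561 ± 0.105 in Lhx6-positive cells without Htr3a, lower in 4 of 4 libraries with no overlap. Erbb4 and Nxph1 were both highest in cells with both Lhx6 and Htr3a. For Erbb4 the 54 cells with both genes (1.61 ± 0.22) overlapped Htr3a-positive cells without Lhx6 (0.986 ± 0.435) and were higher in 4 of 4 libraries. For Nxph1 the same cells (2.61 ± 1.25) did not overlap Lhx6-positive cells without Htr3a (0.925 ± 0.563).

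Which of the genes accompanied Lhx6 was asked by comparing the 352 Lhx6-positive cells (at least 1 UMI; 89, 126, 89 and 48 in WT3, WT6, Het5 and Het9) with the 1604 Dlx-positive cells that had no UMI of Lhx6 or Htr3a. The Lhx6-positive cells included 54 that also held Htr3a, and the other cells included 740 gated as cycling. All 6 genes that were not gates were higher in the Lhx6-positive cells, where 9.47% of the 7758 genes tested were called, 3.89% higher and 5.58% lower. All 6 were also called without cycling cells. The upstream factor Nkx2-1 stood at 4.65, 5.12, 5.06 and 4.22 in the Lhx6-positive cells of WT3, WT6, Het5 and Het9 and at 0.943, 0.787, 0.593 and 0.260 in the other cells (log2 fold change 2.81 ± 0.14, adjusted p = 6.34e-13), with no overlap. Lhx8 stood at 1.95, 3.61, 3.54 and 0.322 against 0.210, 0.30, 0.222 and 0.0396 (2.76 ± 0.21, adjusted p = 4.29e-10), higher within every library although Het9 only just cleared the highest value of the other cells. Maf stood at 1.19, 1.06, 1.17 and 1.47 against 0.128, 0.274, 0.151 and 0.151 (2.28 ± 0.17, adjusted p = 6.32e-10), with no overlap.

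Of the molecules of migration and synapse, Nxph1 stood at 1.17, 0.816, 0.700 and 1.81 in Lhx6-positive cells and at 0.130, 0.231, 0.0533 and 0.0742 in the other cells (2.44 ± 0.22, adjusted p = 1.37e-08). Erbb4 stood at 0.844, 1.25, 0.677 and 0.578 against 0.132, 0.266, 0.128 and 0.164 (1.76 ± 0.18, adjusted p = 8.01e-08). Neither gene's classes overlapped. Prox1 differed least, at 0.862, 0.709, 0.522 and 0.759 against 0.338, 0.479, 0.386 and 0.376 (0.71 ± 0.16, adjusted p = 0.00525), and its call was lost with cells thinned to 3000 UMIs (0.47 ± 0.22, adjusted p = 0.278) and without WT3 (0.56 ± 0.19, adjusted p = 0.0731). Thinning also left 227 Lhx6-positive cells, with Prox1 in 16.7% of them against 10.7% of the other cells. Among Lhx6-positive cells without Htr3a, Prox1 stood lower, at 0.615, 0.516, 0.438 and 0.674 in WT3, WT6, Het5 and Het9. In these Nxph1 stood at 0.975, 0.655, 0.383 and 1.69 and Erbb4 at 0.596, 1.21, 0.574 and 0.412. They were not tested against the other cells. The 7 pallial markers summed to 1.16 to 2.34 in the Lhx6-positive cells and to 1.66 to 2.13 in the other cells. Globin and Alas2 UMIs, which mark red cell RNA, summed to 3.77 to 5.97 in the Lhx6-positive cells of WT3 and Het5 and to 51.3 and 99.4 in WT6 and Het9, and their part in these levels was not tested.

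**Figure D2:**
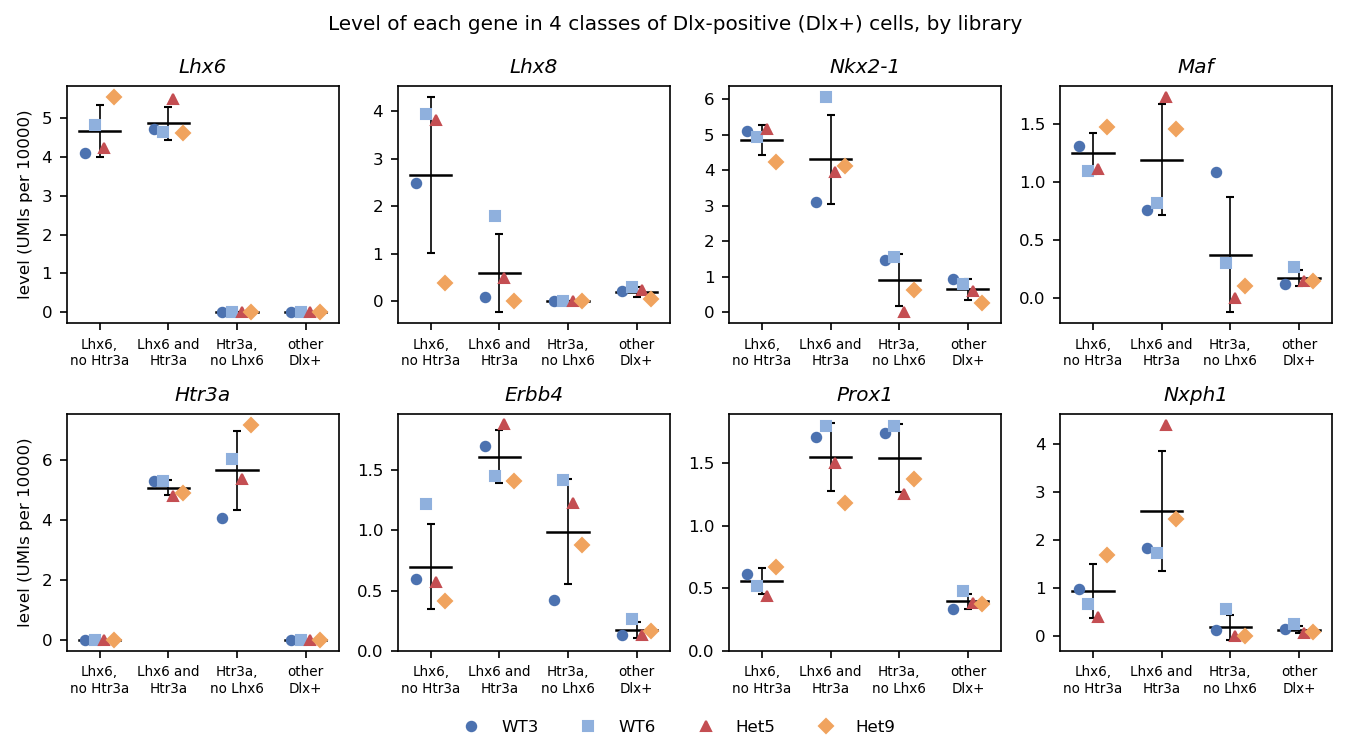
Level of each gene (UMIs per 10000, y axis) in 4 classes of Dlx-positive cells (x axis) by library; each point is 1 library, and the lines and bars are the mean and SD over 4 libraries. Nkx2-1 and Maf were high in both Lhx6-positive classes, Prox1 in both Htr3a-positive classes, and Lhx8 of Het9 lay at 0.387 in Lhx6-positive cells without Htr3a against 2.49 to 3.94 in the other libraries.

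Of 17 genes listed for the medial eminence, 11 were tested and 8 were higher in Lhx6-positive than in other Dlx-positive cells, with a median log2 fold change of 1.08 against -0.02 over all genes tested. A gene of low level could pass the filter through the class where it was high, so the tallies of lists are descriptions. Those called included Npy, the neuropeptide Y gene (3.92, 2.84, 2.63 and 4.70 against 0.529, 0.513, 0.326 and 0.256; 2.84 ± 0.16) and Sox6, needed for medial eminence interneurons to mature (2.24 ± 0.13). Somatostatin (Sst) was also called (1.47 ± 0.42, adjusted p = 0.0243), but it stood at 2.25 in WT3 and at 0 to 0.161 in the other 3 libraries. Of the caudal eminence list, 5 of 14 genes were tested, none was higher, and Sp8 and Nr2f1 were lower (-1.77 ± 0.23 and -0.57 ± 0.15). Of 20 migration genes, 15 were tested and 7 were higher, led by the chemokine receptor Ackr3 (0.99 ± 0.20), Plxna4 (0.92 ± 0.18), Epha4 (0.91 ± 0.08) and Efna5 (0.89 ± 0.17). Of 11 LIM-domain genes, 6 were tested and 3 were lower, Isl1 by most (-2.66 ± 0.20). Cxcr4, the chemokine receptor known from migrating cortical interneurons, gave a UMI in 2.60% of Lhx6-positive cells without Lhx8 and 0.826% of those with it, a level of 0.0700 and 0.0126, under the filter of 0.1 for testing.

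Htr3a-positive cells without Lhx6 numbered 104 (20, 34, 22 and 28 in WT3, WT6, Het5 and Het9). Erbb4 and Prox1, 2 of the 5 genes of the group tested, were higher in them than in other Dlx-positive cells, where 11.4% of the 7789 genes tested were called and 4.03% were called higher. Erbb4 stood at 0.424, 1.42, 1.22 and 0.881 against 0.132, 0.266, 0.128 and 0.164 (1.91 ± 0.31, adjusted p = 2.62e-07). Prox1 stood at 1.74, 1.80, 1.26 and 1.37 against 0.338, 0.479, 0.386 and 0.376 (1.72 ± 0.24, adjusted p = 1.44e-09). Neither overlapped between the classes. Nkx2-1 stood at 1.48, 1.55, 0 and 0.639 against 0.943, 0.787, 0.593 and 0.260 and was not called (-0.07 ± 0.29, adjusted p = 0.933); without Het5, which had no Nkx2-1 UMI in 22 cells, it was called higher (0.84, adjusted p = 0.0340). Maf (0.22 ± 0.40) and Nxph1 (-0.11 ± 0.41) were not called either, and their classes overlapped. Lhx8 fell under the filter, with 0 UMIs in these cells against 170 in the other cells, at least 3.01-fold lower in summed UMIs against a floor of 3 UMIs over the class.

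Of the 14 genes of the caudal eminence list, 8 were tested, 6 were higher in Htr3a-positive cells without Lhx6 than in other Dlx-positive cells and none was lower (median log2 fold change 1.21 against -0.06 over all genes). Nr2f2 stood at 3.24, 4.44, 7.36 and 5.28 against 0.557, 0.605, 0.644 and 0.953 (2.68 ± 0.18) and Nr2f1 at 3.66, 4.12, 8.78 and 7.59 against 1.29, 1.06, 1.41 and 2.11 (1.91 ± 0.16), with Het5 and Het9 the highest for both. Calretinin (Calb2) was called too (1.29 ± 0.38), led by WT3 at 1.67 with the others at 0.179 to 0.293. Of the medial eminence list, 4 of 10 tested were higher, among them St18 (2.09 ± 0.22). Of the 20 migration genes, 17 were tested, 4 were higher, 1 was lower and 12 were not called. Ntrk2, a neurotrophin receptor gene, was higher (1.17 ± 0.30) and Nrp1, a semaphorin receptor gene, was the 1 lower (-1.63 ± 0.35). Doublecortin (Dcx), a microtubule protein of migrating neurons, stood at 7.26, 10.3, 9.34 and 8.23 against 3.89, 4.38, 4.13 and 4.73 (1.01 ± 0.12). The other Dlx-positive cells included 740 gated as cycling, and the part of these in the differences from Htr3a-positive cells was not tested.

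Set directly against each other, the 298 Lhx6-positive cells without Htr3a and the 104 Htr3a-positive cells without Lhx6 differed in Nkx2-1, Maf, Nxph1 and Prox1 and not in Erbb4, where 4.12% of 7718 genes were called, 2.45% higher and 1.67% lower in the Lhx6-positive cells. Lhx8 passed the filter only through the Lhx6-positive cells and is given as a bound. It was at 2.49, 3.94, 3.80 and 0.387 in the Lhx6-positive cells and at 0 in every library of the Htr3a-positive cells, at least 49.7-fold higher in summed UMIs over a floor of 3 UMIs. Nkx2-1 was at 5.10, 4.95, 5.15 and 4.24 against 1.48, 1.55, 0 and 0.639 (2.90 ± 0.34, adjusted p = 8.00e-08), with no overlap. Maf (2.09 ± 0.37, adjusted p = 0.000211) and Nxph1 (2.22 ± 0.43, adjusted p = 0.000777) were also higher. Maf was at 1.09 in the Htr3a-positive cells of WT3, just under the 1.10 to 1.48 of the Lhx6-positive cells. Nxph1 overlapped between the classes, and its call was lost without Het9 (adjusted p = 0.0630). Prox1 was lower in the Lhx6-positive cells, at 0.615, 0.516, 0.438 and 0.674 against 1.74, 1.80, 1.26 and 1.37 (-1.31 ± 0.25, adjusted p = 0.000554), with no overlap. Erbb4 did not pass (-0.43 ± 0.28, adjusted p = 0.531), and its values overlapped. Nr2f2 and Nr2f1 were lower in the Lhx6-positive cells by -3.28 ± 0.24 and -2.92 ± 0.23.

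The 54 Dlx-positive cells with both Lhx6 and Htr3a (20, 19, 7 and 8 in WT3, WT6, Het5 and Het9) were too few per library for a test. Counting error alone leaves wide exact binomial 95% intervals. Nkx2-1 was found in 59.3% of them (45 to 72.4), near the 67.4% of Lhx6-positive cells without Htr3a. Prox1 was found in 51.9% (37.8 to 65.7), against 21.5% of Lhx6-positive cells without Htr3a and 36.5% of Htr3a-positive cells without Lhx6. Erbb4 was found in 37.0% (24.3 to 51.3) and Nxph1 in 29.6% (18.0 to 43.6), the highest shares of any population, and Lhx8 in 11.1% (4.19 to 22.6). These cells came with a median of 4817.5 UMIs against 4653.5 and 4451.5 in the single-positive classes. Their level of globin and Alas2 transcripts was 313 in WT6 and 4.05 to 10.8 in the other libraries, while the 7 pallial markers summed to 2.64, 1.73, 4.0 and 1.52 in WT3, WT6, Het5 and Het9, above the Lhx6-positive cells as a whole (1.24, 1.16, 2.34 and 1.25) and the Htr3a-positive cells without Lhx6 (1.59, 0.934, 1.56 and 1.23) in every library. The part of either in these shares was not tested.

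Across all Dlx-positive cells, detection of one gene of the group went with detection of others in most pairs (matrix of co-detected genes). Lhx6-positive cells held Nkx2-1 in 66.2% (233 of 352) against 11.2% of cells without Lhx6 (thinned 64.8% against 13.1%), Lhx8 in 34.4% against 3.22%, Maf in 22.7% against 4.16%, Erbb4 in 22.7% against 6.5% and Nxph1 in 15.6% against 3.16%, each higher in 4 of 4 libraries. For comparison, cells gated on Neurod2, Neurod6 or Tbr1 held Nkx2-1 in 0.828% and Maf in 1.14%, at a median of 5458.5 UMIs against 4694.5 in Lhx6-positive cells. Htr3a was more frequent with Lhx6 than without it (15.3% against 6.09%, thinned 11.9% against 4.63%, in 4 of 4 libraries). Lhx8 and Htr3a were found together less often: 6 of 176 Lhx8-positive cells held Htr3a (3.41%, thinned 1.48%) against 8.07% of cells without Lhx8 (thinned 5.94%). By library these were 1 of 43 cells in WT3 (2.33% against 8.74%), 4 of 73 in WT6 (5.48% against 7.70%), 1 of 54 in Het5 (1.85% against 6.53%) and 0 of 6 in Het9 (against 9.65%), and the few cells of Het9 could not show a difference.

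Maf, Nxph1 and Erbb4 were also found together, and each was found with Lhx6, which was in 53.0% of Maf-positive against 14.2% of Maf-negative cells and in 50.5% against 15.2% by Nxph1. Nxph1 was found in 30.5% of Maf-positive cells against 3.30% of Maf-negative cells (thinned 38.2% against 1.88%). Erbb4 was found in 39.1% of Maf-positive cells against 6.91% (thinned 32.4% against 4.30%) and in 40.4% of Nxph1-positive cells against 7.53% (thinned 36.8% against 4.33%), all higher in 4 of 4 libraries. With Lhx8 the differences were smaller: it was found in 11.3% of Maf-positive against 8.33% of Maf-negative cells, in 9.17% against 8.51% by Nxph1 and in 12.6% against 8.13% by Erbb4, each higher in 2 of 4 libraries. Prox1 was found with Htr3a (41.8% of Htr3a-positive against 16% of Htr3a-negative cells, in 4 of 4 libraries) and with Nkx2-1 (28.8% against 15.2%). With Maf (13.9% against 18.3%, higher in 1 of 4 libraries) and Nxph1 (16.5% against 18.0%, higher in 2 of 4) its share was lower, but the direction turned at equal depth (thinned 16.2% against 12.2% for Maf and 15.8% against 12.2% for Nxph1). These shares come from cells of 4 libraries and are descriptions. The Dlx-positive cells included 740 cycling cells without Lhx6 or Htr3a, and their part in the shares was not tested. Of the 2060 Dlx-positive cells, 54.3% held none of the 8 genes, 19.9% held 1, and 1 cell held 7.

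**Figure D3:**
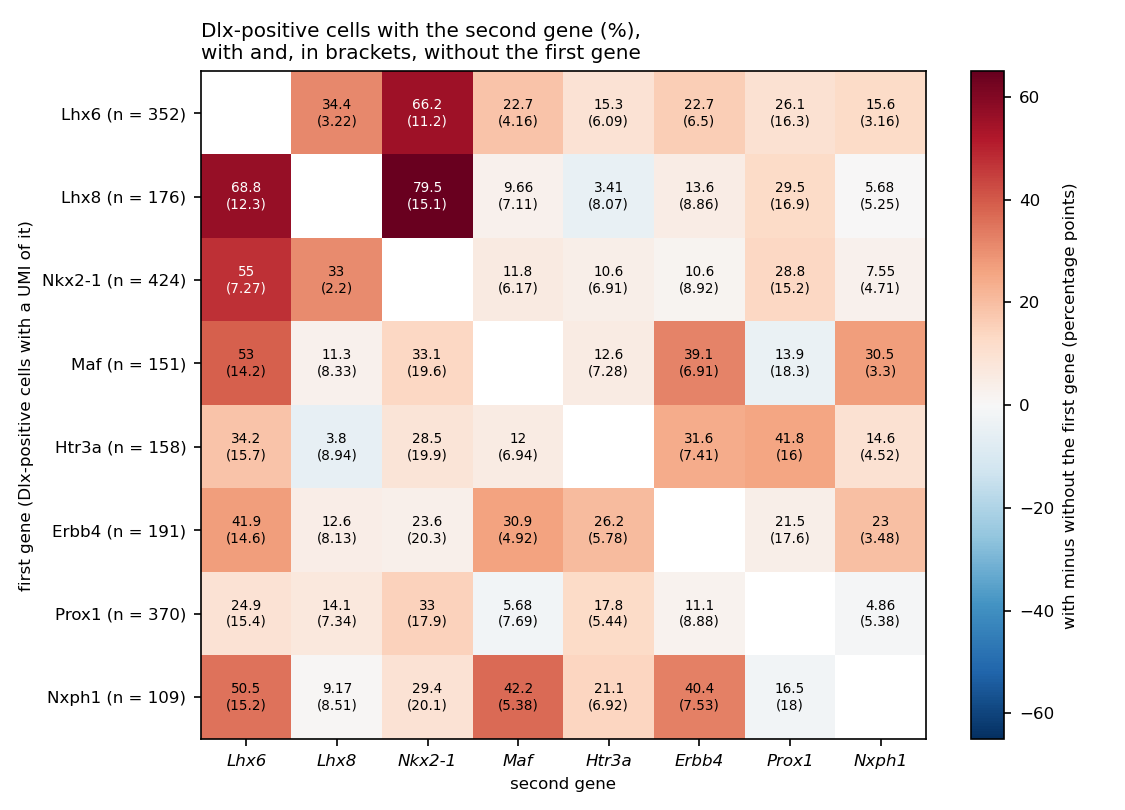
Share of Dlx-positive cells with a UMI of the second gene (x axis, %) among cells with and, in brackets, without a UMI of the first gene (y axis, with the number of cells); red marks pairs found together more often and blue pairs found together less often, in percentage points. The pairs among Lhx6, Lhx8 and Nkx2-1 are red, as are those among Maf, Erbb4 and Nxph1 and those of Lhx6 with these, and the Lhx8 and Htr3a pair is blue (3.41% against 8.07%).

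The Lhx6-positive cells themselves divided by Lhx8. This division was chosen after the values were seen and is given with no test. Lhx8 was found in 121 Lhx6-positive cells (24 of WT3, 50 of WT6, 43 of Het5 and 4 of Het9, median 5186 UMIs) and not in 231 (65, 76, 46 and 44, median 4492 UMIs). Cells with Lhx8 held Nkx2-1 in 79.3% against 59.3% of those without, and less often Maf (10.7% against 29.0%, thinned 6.76% against 19.6%), Nxph1 (4.96% against 21.2%, thinned 5.41% against 16.3%), Htr3a (4.96% against 20.8%, thinned 2.70% against 16.3%) and Erbb4 (15.7% against 26.4%, thinned 9.46% against 17.0%). Maf was lower in the cells with Lhx8 in WT3, WT6 and Het5 (4.17%, 8.0% and 14% against 26.2%, 28.9% and 39.1%), while Het9 had only 4 such cells, 2 of them with Maf. Prox1 differed little, at 28.9% against 24.7%. Nr2f2 was found in 1 of the cells with Lhx8 (0.826%) and in 19.5% of those without, Nr2f1 in 5.79% against 30.7%, and Mef2c, a transcription factor gene of maturing interneurons, in 4.96% against 19.0%. All Sst UMIs of the Lhx6-positive cells were in cells without Lhx8 (1.73% of them). Sox6 had no common direction, with a level of 1.49, 2.04, 2.80 and 0 in the cells with Lhx8 of WT3, WT6, Het5 and Het9 and of 1.87, 1.91, 1.90 and 2.07 in those without it.

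**Figure D4:**
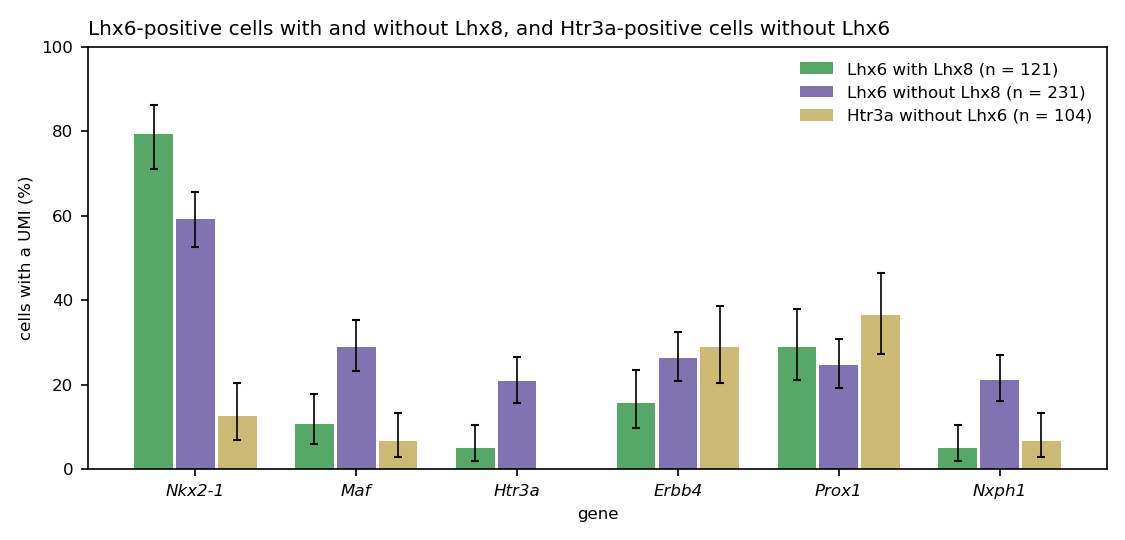
Share of cells with a UMI (%, y axis) of 6 genes (x axis) in Lhx6-positive cells with Lhx8, Lhx6-positive cells without Lhx8 and Htr3a-positive cells without Lhx6; bars show the pooled share and error bars its exact binomial 95% interval, which covers counting error only. Maf, Htr3a and Nxph1 were at 10.7%, 4.96% and 4.96% with Lhx8 and at 29.0%, 20.8% and 21.2% without it; Htr3a is not drawn for cells gated on it.

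The genes whose levels were most like those of each member over the 12 populations were found among 11029 candidates, by Pearson's r of log2(level + 0.1), as a description. Lhx6 was closest to Sst (r = 0.98), whose level rested on WT3, and Tgfb3 (0.95), Nkx2-1 to Mbip (0.95), which lies beside it in the genome, and Zak (0.92), and Lhx8 to Crabp2 (0.91) and Epb41l4a (0.88). Maf was closest to Tgfb3 (0.90) and Efcab6 (0.89), Nxph1 to Zak (0.89) and Fam65b (0.88), Erbb4 to Rpp25 and Adamtsl1 (both 0.94), Htr3a to Gm6793 (0.94) and Lurap1l (0.88), and Prox1 to Trim36 (0.94) and its own antisense gene Prox1os (0.94). Among the members, the closest were Erbb4 with Prox1 (0.85), Lhx8 with Nkx2-1 (0.85) and Maf with Erbb4 (0.84), and the least alike were Lhx8 and Htr3a (0.04). The populations share their libraries, and the Lhx6 and Htr3a gates shape these values.

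Whether Setd5 heterozygosity changed the number of these cells was asked by their share of Dlx-positive cells. Lhx6-positive cells were 18.2%, 17.8%, 18.4% and 12.7% of the Dlx-positive cells in WT3, WT6, Het5 and Het9 (exact binomial 95% intervals 14.9 to 21.9, 15.0 to 20.8, 15.1 to 22.2 and 9.49 to 16.4). The genotypes overlapped, since Het5 was the highest and Het9 the lowest (exact two-sided permutation test, p = 1, with a smallest possible p of 0.33 for 2 against 2 libraries). Htr3a-positive cells without Lhx6 were 4.09%, 4.80%, 4.55% and 7.39% (exact permutation p = 0.667), with Het5 between the wild type libraries and Het9 above them. The difference between the genotypes was -2.44 percentage points for Lhx6 and 1.53 for Htr3a, and without Het9 it was 0.441 and 0.112. With cells thinned to 3000 UMIs it was -1.99 and 0.128, and without the cycling, Ebf1 or Isl1 and Zic gated cells it was -6.63 and 2.05. The Dlx-positive share of all cells was 33.7% and 36.3% in the wild type and 28.2% and 26.2% in the heterozygous libraries.

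No member was called between genotypes over all cells (0.086% of 8137 genes called by limma, 0.0369% higher and 0.0492% lower), over Dlx-positive cells (0.167% of 7778, 0.0514% higher and 0.116% lower) or in Lhx6-positive cells (0.0521% of 7681, 0.026% in each direction). At an unadjusted p under 0.05 there were 353, 359 and 303 genes. Over all cells the log2 fold changes of the 8 genes ran from -0.85 for Nkx2-1 to -0.11 for Htr3a (adjusted p 0.708 to 0.994). In Dlx-positive cells 3 of the 8 genes did not overlap between genotypes, against 32.1% of all genes tested. Nkx2-1 was at 1.64 and 1.59 in the wild type and 1.39 and 0.790 in the heterozygous libraries (-0.58 ± 0.19, adjusted p = 0.921), Maf at 0.361 and 0.414 against 0.331 and 0.315 (-0.20 ± 0.13) and Nxph1 at 0.319 and 0.351 against 0.170 and 0.289 (-0.42 ± 0.18). All 3 were lower in both heterozygous libraries and none passed the test (adjusted p = 0.9996 for Maf and Nxph1). Lhx6 itself was at 0.770, 0.853, 0.798 and 0.683 (-0.12 ± 0.12) and Prox1 at 0.491, 0.583, 0.451 and 0.498 (-0.15 ± 0.13), with overlap. Htr3a, at 0.384, 0.432, 0.315 and 0.636 (0.12 ± 0.22), overlapped too. Erbb4 stood out in WT6 at 0.496 against 0.270 to 0.279 in the other 3 libraries.

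Lhx8 separated Het9 from the rest rather than one genotype from the other. It gave UMIs in 43, 73 and 54 Dlx-positive cells of WT3, WT6 and Het5 (8.79%, 10.3% and 11.2%) and in 6 of Het9 (1.58%; thinned 0.635% against 8.77% to 9.98%). In Lhx6-positive cells the shares were 27.0%, 39.7% and 48.3% against 8.33% (4 of 48), at median depths of 4484, 4865 and 5036 against 4350 UMIs. The log2 fold change between genotypes in Lhx6-positive cells was -1.15 ± 0.56 (adjusted p = 0.982), and its value was -2.71 without Het5 and 0.40 without Het9, each with 1 heterozygous library left. In the same cells Nkx2-1 was lowest in Het9 by a smaller margin, at 4.22 against 4.65 to 5.12 and in 62.5% of cells against 62.9% to 69.7%, and Lhx6, the gate, was at 5.39 in Het9 against 4.23 to 4.80. Het9 also held the fewest cells in the Dlx-positive population gated on Zic1 or Zic4 after the earlier gates (2 against 16 to 49). The part of its cell makeup in the Lhx8 level was not tested.

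**Figure D5:**
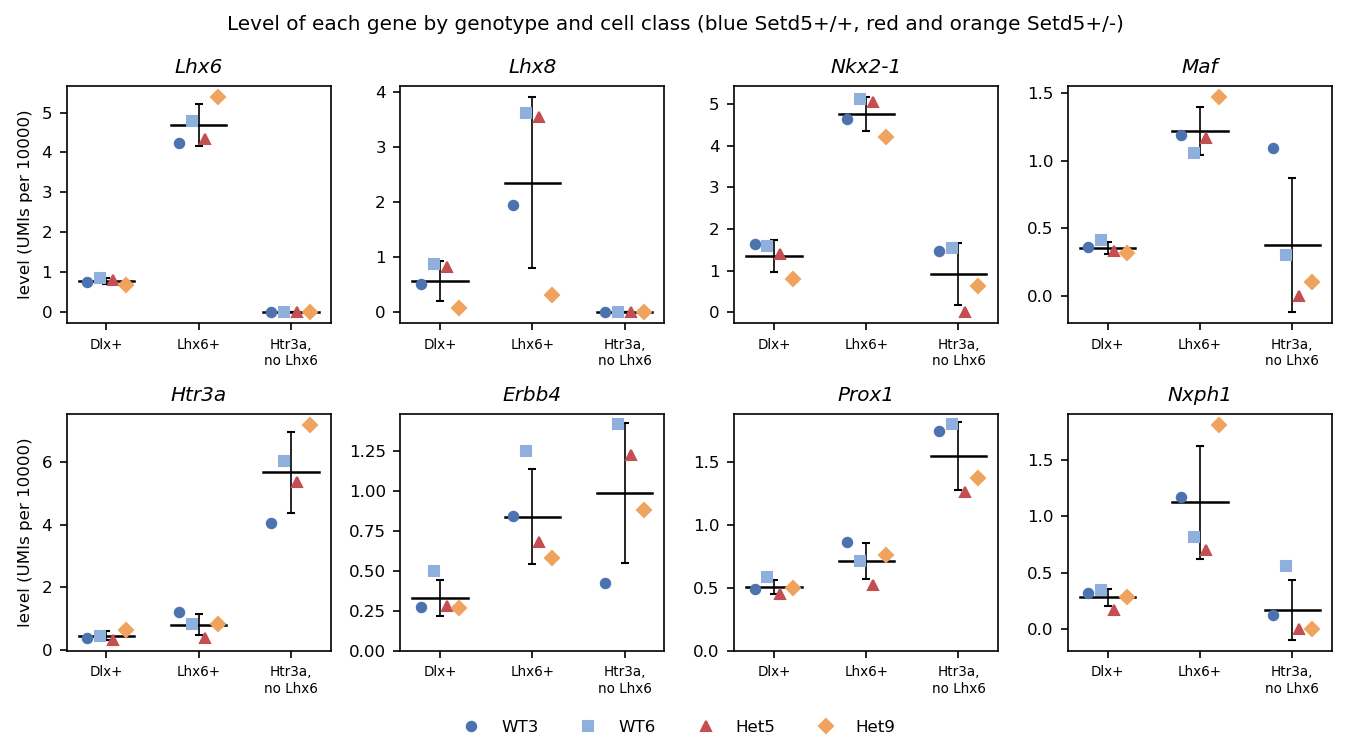
Level of each gene (UMIs per 10000, y axis) in all Dlx-positive cells, Lhx6-positive cells and Htr3a-positive cells without Lhx6 (x axis); points are libraries (blue Setd5+/+, red and orange Setd5+/-), and lines and bars are the mean and SD over all 4. Lhx8 in Lhx6-positive cells was at 0.322 in Het9 and at 1.95 to 3.61 in the other 3 libraries, among them Het5.

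In Lhx6-positive cells, Erbb4 was the only 1 of the 7 genes tested that did not overlap between genotypes, against 32.5% of all genes tested. It was at 0.844 and 1.25 in the wild type and 0.677 and 0.578 in the heterozygous libraries, 59.9% of the wild type mean (-0.64 ± 0.26, adjusted p = 0.982). Htr3a in the same cells was at 1.19, 0.802, 0.379 and 0.821 (-0.70 ± 0.31, adjusted p = 0.982), Prox1 at 0.862, 0.709, 0.522 and 0.759 (-0.27 ± 0.27, adjusted p = 0.982), Maf at 1.19, 1.06, 1.17 and 1.47 and Nxph1 at 1.17, 0.816, 0.700 and 1.81, all overlapping. The difference between genotypes of the Lhx6-positive against other Dlx-positive contrast was called for 0 of 7758 genes by limma, with 426 at an unadjusted p under 0.05. Its largest estimates among the members were 0.96 ± 0.48 for Nxph1 and 0.87 ± 0.33 for Nkx2-1, both with an adjusted p of 0.875.

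In Htr3a-positive cells without Lhx6, Nkx2-1 was the 1 member of 5 tested that was called (0.144% of 7665 genes called, 0.0522% higher and 0.0913% lower). It was found in 5 of 20 and 7 of 34 wild type cells and in 0 of 22 and 1 of 28 heterozygous cells, at 1.48, 1.55, 0 and 0.639 (-2.57 ± 0.54, adjusted p = 0.00310). The call was lost when any of the 4 libraries was left out (adjusted p 0.217 to 0.875), when UMIs were summed over the cells (adjusted p = 0.948) and with a pseudocount of 0.01 (adjusted p = 0.548). It rested on 13 cells. With 1 library left out, 1 genotype has a single library, assumed to vary like the other. In the same cells Npy, of the medial eminence list, was called lower in the heterozygous libraries, at 1.63, 1.52, 0.123 and 0 (-3.49 ± 0.62, adjusted p = 4.68e-05). Npy was found in 7.69% of these cells and passed the filter only through the wild type libraries, so its call is a description. Nr2f1, of the caudal eminence list, was called higher, at 3.66, 4.12, 8.78 and 7.59 (1.05 ± 0.25, adjusted p = 0.0206). Both calls were lost when any library was left out (adjusted p 0.162 to 0.875 and 0.275 to 0.877), with summed UMIs (adjusted p = 0.107 and 0.369) and with a pseudocount of 0.01 (adjusted p = 0.0536 and 0.158), and that of Nr2f1 also with no filter (adjusted p = 0.0555) and a Dlx gate of 1 UMI (adjusted p = 0.0809). They were the 1 gene called of 10 tested on the medial list and the 1 of 8 on the caudal list. The median log2 fold change between genotypes was -0.12 over the medial and 0.87 over the caudal list, against -0.01 over all genes. Genes that were not called went both ways. Nr2f2 of the caudal list was at 3.24, 4.44, 7.36 and 5.28 and Calb2 of the same list at 1.67, 0.226, 0.179 and 0.293. St18 of the medial list was at 2.12, 1.60, 2.76 and 2.89. The part of the cell makeup of this class in the Nkx2-1 level was not tested. The genotypes did not overlap for 32.5% of all genes tested in these cells. Among the members this was so for Nkx2-1 and for Prox1, at 1.74, 1.80, 1.26 and 1.37 (-0.40 ± 0.38, adjusted p = 0.999). Maf, at 1.09, 0.304, 0 and 0.103, and Nxph1, at 0.126, 0.561, 0 and 0, did not overlap either and were not called (adjusted p = 0.617 and 0.969), but they passed the filter only through the wild type libraries and are not read against that share. Erbb4 was at 0.424, 1.42, 1.22 and 0.881, with overlap.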

How the data were processed

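Per the labels, polyA RNA of sorted cells was made into 10x Genomics Single Cell 3' V2 libraries. Tools in the submitters' processing notes were Cell Ranger 2.1, which also aggregated the libraries, and Seurat 2.3.0, with build mm10. The annotation, strand setting and filters on cells were not given in these sources. The deposited values are the natural log of 1 plus the UMIs per 10000 UMIs of a cell, made by the authors. Undoing the log gave whole multiples of 1 UMI for 100% of 14848520 values (tolerance 0.001), and these recovered UMIs served gates, detection shares, thinning, the summed-UMI alternative and fold bounds against a count of 0. Cell name prefixes (WT3, WT6, Het5, Het9) gave each library's genotype and could not be tied to one replicate of the labels.

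Levels (mean UMIs per 10000 over the cells of a library and class) were tested as log2(level + 0.1) with limma 3.58.1 (trend) in R 4.3.3, over genes with a mean of at least 0.1, with Benjamini-Hochberg adjustment over all genes tested and a threshold of 0.05. Class contrasts had library as a block, and gate genes got no test. The difference between genotypes of the Lhx6 contrast was fitted by limma without the trend. A class needed at least 20 cells in every library. No count model was run; summed UMIs were tested by limma as an alternative. Scripts were tested on simulated data. Shares were compared by exact permutation, with exact binomial 95% intervals. Thinning drew 3000 UMIs per cell and left out 526 shallower cells. Intervals and limits from a count of 0 (3 divided by the cells) cover counting error only. Gates were, in order, Lhx6 and Htr3a (at least 1 UMI each), then at least 2 UMIs of Top2a, Mki67 and Ube2c (cycling), Ebf1 and Isl1, Zic1 and Zic4, Nr2f2, and in Dlx-negative cells Eomes and Neurog2, then Neurod2, Neurod6 and Tbr1, then Slc1a3, Hes1 and Hes5. Members were fitted in each comparison where they passed the filter and were not gates. Genes named were the 8 members and, of each list, up to 4 called genes with the largest change, leaving out some that are not reported here; Cxcr4 and the genes beside the Lhx8 division were chosen after their values were seen. Members and lists were chosen with earlier results of these data known. Vip and Nrg4, on the lists, were not in the table. Alternatives were other pseudocounts, no filter on low values, summed UMIs, thinning, other gates, and leaving out libraries, shared barcodes or possible doublets. Versions were Python 3.11.15, numpy 2.4.6, pandas 2.3.3, scipy 1.17.1 and matplotlib 3.10.9.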

Additional observations from a re-analysis of the deposited data

Results flagged for a closer look

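Maf moved in opposite directions with genotype in the contrast of Htr3a-positive cells without Lhx6 against other Dlx-positive cells. It was higher in the Htr3a-positive cells of both wild type libraries, by 2.39 in WT3 and 0.11 in WT6 on the log2(level + 0.1) scale, and differed by -1.33 in Het5 and -0.30 in Het9. The mean difference between the genotypes was -2.07. This difference was not tested, and it rests on 7 Maf-positive cells among 104, with 8 of their 12 UMIs in WT3.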

How the results depend on the processing

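Alternatives that were added after seeing the data are those that leave out cycling, Ebf1 or Isl1 and Zic gated cells and, for the shares, the shared barcodes. The 8 calls of Dlx-positive against Dlx-negative cells kept direction and call under every alternative in which they were tested, which for Nxph1 leaves out summed UMIs, where it fell under the filter. Of the 6 for Lhx6-positive against other Dlx-positive cells, 5 did, and Prox1 lost its call in 4 alternatives (adjusted p 0.0531 to 0.278). Between Lhx6 without Htr3a and Htr3a without Lhx6, Nxph1 lost its call without Het9. The number of genes called over the whole table moved more. For Dlx-positive against Dlx-negative cells it was 3940, and 6152 with no filter. For Lhx6-positive against other cells it was 735, and 348 with no filter, 348 with thinning, 437 without cycling cells and 423 to 778 with 1 library left out. For Htr3a without Lhx6 against other cells it was 887, 515 with a pseudocount of 0.01 and 514 to 758 with 1 library left out, and for Lhx6 against Htr3a 318, 188 and 154 to 289. Between genotypes, 7 genes over all cells became 7 to 41 with 1 library left out, 13 in Dlx-positive cells became 5 to 38, 8 with no filter and 6 with a Dlx gate of 1 UMI, 4 in Lhx6-positive cells became 3 to 39, and 2 with thinning, and 11 in Htr3a-positive cells became 1 to 9, 3 with a pseudocount of 0.01, 3 with summed UMIs, 7 with no filter and 7 with a Dlx gate of 1 UMI. The highest counts, 41, 38 and 39, were without Het5, when the heterozygous group was Het9 alone, assumed to vary like the wild type pair, which alone gave the spread. There the log2 fold changes of Lhx8 and Nkx2-1 were -1.51 and -1.21 over all cells and -2.17 and -0.95 in Dlx-positive cells. That of Lhx8 was -2.71 in Lhx6-positive cells. The genotype difference of the Lhx6 contrast had 1 call with a pseudocount of 1. The Lhx6-positive share differed by -5.32 to 0.441 percentage points with 1 library left out, and by -6.63 without the cycling, Ebf1 or Isl1 and Zic gated cells. The Htr3a-positive share without Lhx6 differed by 0.128 with thinning and by 2.05 without those gated cells, where the genotypes did not overlap (8.97% and 8.97% against 9.48% and 12.6%, exact permutation p = 0.333, the smallest possible).

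Among values that were not called in the report, signs turned as follows. With 1 library left out, log2 fold changes between genotypes ranged from -0.67 to 0.0017 for Erbb4, -2.17 to 0.25 for Lhx8 and -0.29 to 0.54 for Htr3a in Dlx-positive cells, from -0.38 to 0.16 for Htr3a over all cells, from -2.71 to 0.40 for Lhx8, -0.43 to 0.83 for Nxph1 and -0.20 to 0.051 for Nkx2-1 in Lhx6-positive cells, and from -0.41 to 1.12 for Erbb4 in Htr3a-positive cells. With Htr3a-positive against other cells they ranged from -0.51 to 0.73 for Maf, -0.43 to 0.84 for Nkx2-1 and -0.14 to 0.12 for Nxph1. With thinning, Lhx6-positive cells gave -0.052 for Nxph1, -0.31 for Maf and 0.15 for Nkx2-1, and with gates of 2 UMIs -0.56 for Nxph1. Without the cycling, Ebf1 or Isl1 and Zic cells, Htr3a was at -0.030 in Dlx-positive cells, and summed UMIs put Erbb4 at -0.066 in Htr3a-positive cells. Against other cells, Htr3a-positive cells had Nxph1 at 0.040 (pseudocount 1), 0.16 (summed UMIs) and 0.044 (Dlx gate of 1), Nkx2-1 at 0.14 (pseudocount 1) and 0.33 (Dlx gate of 1) and Maf at -0.34 (pseudocount 0.01). The cause was not tested for any of these.

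No paired analysis was possible because the library prefixes carry no replicate number of the labels. Thinning, removal of possible doublets, gates of 2 UMIs and removal of cycling cells could not be run for Htr3a-positive cells without Lhx6, which then fell under 20 cells in a library. With 20 to 34 such cells per library and 2 libraries per genotype, differences between genotypes in them are known only roughly.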
